A study of Mus musculus with 7 samples.

Results

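Fatty acid oxidation and ketone body genes were followed across the cells of the mouse ventricular-subventricular zone (V-SVZ), the stem cell niche along the lateral ventricles. The set held 39 genes of the 32285 in the count tables, chosen by symbol: the carnitine shuttle (Cpt1a, Cpt1c, Cpt2, Slc25a20), the acyl-CoA dehydrogenases (Acadl, Acadm, Acads, Acadvl, Acad9, Acad10, Acad11), the later mitochondrial steps (Echs1, Eci1, Eci2, Ech1, Hadh, Hadha, Hadhb, Acaa2, Decr1), the peroxisomal genes (Acaa1a, Acox3, Ehhadh, Hsd17b4, Decr2), electron transfer (Etfa, Etfb, Etfdh), the acyl-CoA synthetases (Acsl1, Acsl3, Acsl4, Acsl5, Acsl6), ketone body genes (Bdh1, Acat1, Oxct1) and a set of regulators and an uncoupling protein (Ppara, Ppargc1a, Ucp2). Droplet-based single-cell RNA sequencing had been run on 3 Control libraries (genotype written Prdmflox/flox), 3 Prdm16 cKO libraries (hGFAP-Cre+/-; Prdm16flox/flox) and 1 Prdm16-Vcam1 DKO library (hGFAP-Cre+/-; Prdm16flox/flox; Vcam1flox/flox). Every library pooled the tissue of 2 to 3 mice of both sexes at postnatal day 31 to 33, all with floxed Prdm16 alleles. Control mice carried no hGFAP-Cre, so the presence of Cre and the deletion of Prdm16 cannot be told apart in cKO against Control. Cre was driven by the human GFAP promoter, which is active in radial glia from mid-gestation and in astrocytes, so that the neurons and oligodendrocytes these cells form can carry the deletion too, whereas endothelial cells and microglia have another origin.

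Mitochondrial fatty acid oxidation begins when an acyl-CoA synthetase activates the fatty acid and the carnitine shuttle moves it across the mitochondrial membranes. Dehydrogenases, hydratases and thiolases then shorten the chain in cycles, and electron transfer flavoprotein passes the electrons to the respiratory chain. Ketone bodies, formed from the acetyl-CoA that results, serve the brain as a fuel, and neural stem cells (NSCs) of the V-SVZ are known to use fatty acid oxidation.

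After filtering, 43346 cells remained, of which 35878 fell into 11 named cell types and 7468 into clusters that could not be named. The types were built by clustering these cells on other genes, with all 39 members left out of the clustering features, and were named from markers. The NSC-like cluster passed 7 of 8 NSC markers but also 7 of 9 astrocyte markers, so its name rests on a narrow margin. The astrocyte-like cluster passed 9 astrocyte markers and 1 NSC marker. The 5349 NSC-like cells came in 207 to 1244 cells per library. Their libraries held 2776727 to 10084852 unique molecular identifiers (UMIs, each standing for 1 captured RNA molecule). Libraries held 45758003 to 141353017 UMIs in all, and 70.2% to 74.7% of barcodes were kept in 5 of them but 49.8% and 47.2% in cKO replicates 2 and 3. Levels are UMIs of a gene per 1000000 UMIs (CPM) of the summed cells of a type in a library, and the members together held 913919 UMIs in the named types. The floxed gene itself was a weak check of the labels: Prdm16 was at 69.1, 61.1 and 72.3 CPM in NSC-like cells of the Control libraries and at 55.4, 52.3 and 50.3 CPM in the cKO libraries. There was no call (log2 fold change −0.36, adjusted p = 0.285 in edgeR's quasi-likelihood test). In astrocyte-like cells it was at 49.6, 44.2 and 47.8 CPM in Control and 48.7, 59.8 and 52.8 CPM in cKO libraries, which overlapped and did not go down (0.18, adjusted p = 0.808 in edgeR). In ependymal-like cells it was at 25.3, 22.1 and 21.0 CPM in Control and 15.6, 11.6 and 12.4 CPM in cKO libraries, without overlap but also without a call (−0.76, adjusted p = 0.211 in edgeR). Vcam1, the second floxed gene of the DKO library, was at 91.7 CPM in its NSC-like and 188 CPM in its astrocyte-like cells, below every Control library (111 to 143 and 306 to 390 CPM). Counts of a whole gene need not cover the deleted part, so this checks the labels little. Prm1, which is known as a gene of sperm chromatin, was read in NSC-like cells of all 4 libraries that carry hGFAP-Cre (157 to 436 UMIs per 1000000) and in 0 of 2771 Control NSC-like cells, which allows a share of up to 0.108% of cells with a UMI. It was not absent from the Control libraries: 13 of 1551 ependymal-like and 1 of 3821 neuroblast-like Control cells held a UMI.

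Astrocyte-like cells were most often the highest in fatty acid oxidation genes and neuron-like cells most often the lowest. Of the 39 members, 16 had their highest mean level in astrocyte-like cells and 3 in NSC-like cells, while 19 had their lowest mean in neuron-like cells. Of the 16, only Acsl6 and Ppargc1a lay above every library of every other type, and the rest overlapped another type. The share of all genes with these patterns was not counted, so the counts are not a trait of this set. Each gene below is compared with itself between cell types, as the mean over the 7 libraries of all 3 genotypes. Levels are not compared between genes, because transcript length and 3′ capture differ. The types come from the same cells, so their differences are descriptions of these clusters and no p is printed for them.

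**Figure D1:**
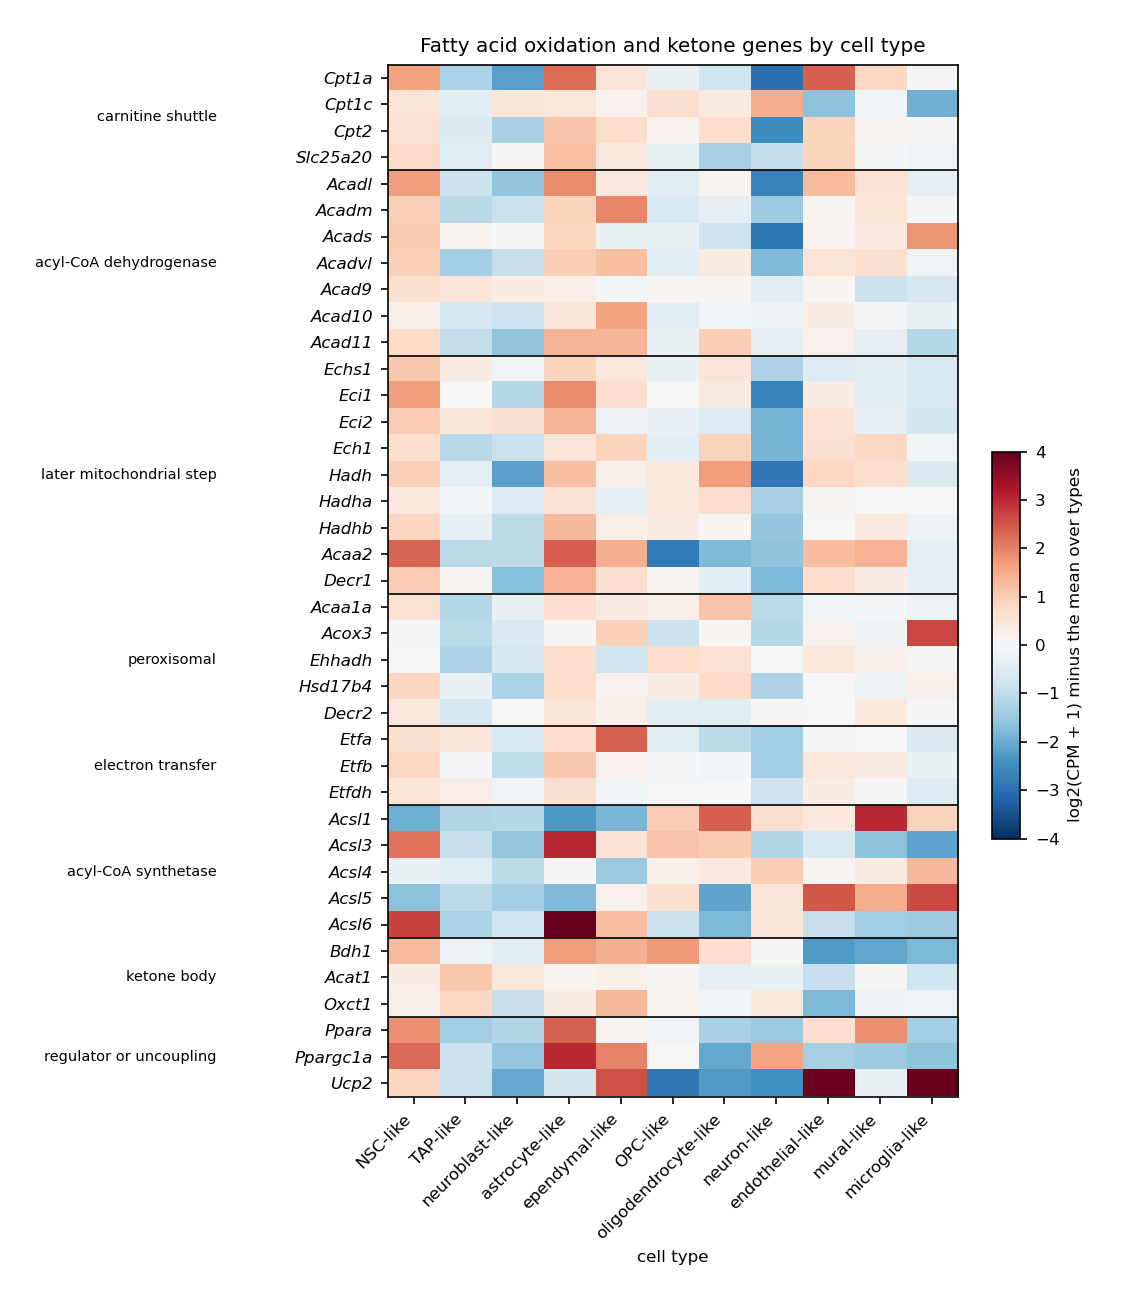
Heat map of the 39 genes (rows, grouped by role) in 11 cell types (columns). Colour is log2(CPM + 1) of the mean over 7 libraries, minus the average of that gene over the 11 types, from blue (lower) to red (higher), with the scale ending at −4 and 4; neuron-like cells are the lowest column for 19 genes, and Ucp2 stands out in endothelial- and microglia-like cells.

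The carnitine palmitoyltransferases, which load acyl groups onto carnitine, differed between them in their order over cell types. Cpt1a, the form known to set the pace of mitochondrial uptake in most tissues, had its highest levels in endothelial-like cells (95.2 ± 12.7 CPM, SD over 7 libraries) and astrocyte-like cells (84.5 ± 9.57 CPM), which overlapped, and next in NSC-like cells (55.2 ± 4.08 CPM). It fell to 6.63 ± 1.29 CPM in TAP-like cells (transit-amplifying progenitors), 3.07 ± 1.49 CPM in neuroblast-like cells and 1.31 ± 0.929 CPM in neuron-like cells. Cpt1c, the brain form, ran the other way at the neuronal end: it was highest in neuron-like cells, with 46.5 CPM in the lowest library, 58.9 in the median and 74.4 in the highest, and OPC-like cells (oligodendrocyte progenitors, 34.6 ± 8.46 CPM) overlapped it in their highest library. NSC-like (32.5 ± 4.29 CPM), neuroblast-like (30.9 ± 4.35) and astrocyte-like cells (30.3 ± 5.01) overlapped in Cpt1c, and endothelial-like (6.35 ± 1.25 CPM) and microglia-like cells (5.05 ± 3.16 CPM) were lowest. The bases upstream of both genes are shown because this pair of paralogs had the most unlike patterns of the shuttle. The stretches lie at chr19:3323051-3323284 (plus strand) for Cpt1a and chr7:44974852-44975101 (minus strand) for Cpt1c (RefSeq, GRCm38.p6). They end before the first exon of the RefSeq transcript used. A further Cpt1a transcript of GENCODE vM21 begins at 3322334, so the Cpt1a stretch lies within the gene there but in none of its annotated exons. The capitals mark GGGCGG on either strand, a box bound by SP1-type factors.
Cpt1a: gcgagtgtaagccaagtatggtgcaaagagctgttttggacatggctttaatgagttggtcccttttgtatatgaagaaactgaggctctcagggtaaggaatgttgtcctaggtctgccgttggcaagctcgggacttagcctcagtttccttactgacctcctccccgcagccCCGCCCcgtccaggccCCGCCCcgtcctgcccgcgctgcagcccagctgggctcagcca
Cpt1c: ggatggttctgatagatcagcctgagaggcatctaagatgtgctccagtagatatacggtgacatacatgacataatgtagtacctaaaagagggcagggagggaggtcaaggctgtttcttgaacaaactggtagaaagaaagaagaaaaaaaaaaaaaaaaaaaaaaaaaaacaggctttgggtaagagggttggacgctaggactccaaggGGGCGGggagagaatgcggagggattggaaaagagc
Cpt1a held 2 such boxes in a stretch of 58.1% G and C, and Cpt1c held 1 in a stretch of 44.0%. In windows from 250 bases before to 50 after the start, the box was present in 29 of 38 windows of the 34 members with a window used here (76.3%), beside 61.2% of the 13991 windows of all genes tested in NSC-like cells. The direct repeat with 1 spacer base that peroxisome proliferator-activated receptors (PPARs) can bind, searched on both strands by its consensus, was in 0 of the 38 windows and in 0.193% of the 13991.

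The acyl-CoA synthetases differed widely between cell types. Acsl6, a form enriched in brain, reached 626 CPM in the lowest, 710 in the median and 764 in the highest library of astrocyte-like cells, against 258 ± 27.8 CPM in NSC-like cells and 10.3 ± 2.53 CPM in oligodendrocyte-like cells. Acsl3, which is tied to lipid droplet formation, followed the same order at its top, with 1756 ± 401 CPM in astrocyte-like and 989 ± 348 CPM in NSC-like cells, whose ranges overlapped. Acsl1 was lowest in these 2 types (4.71 ± 1.47 CPM in astrocyte-like and 6.32 ± 1.57 CPM in NSC-like cells) and highest in mural-like cells, where all 7 libraries (194 to 270 CPM) lay above every library of every other type. Oligodendrocyte-like cells came next in Acsl1, at 147 ± 10.7 CPM. Acsl5 was at 44.7 ± 9.04 CPM in microglia-like and 39.6 ± 6.42 CPM in endothelial-like cells and at 1.34 ± 0.575 CPM in NSC-like cells. Acsl4, which prefers arachidonic acid, varied least within the family, between 5.57 ± 1.77 CPM in ependymal-like and 43.5 ± 7.1 CPM in microglia-like cells.

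Within the oxidation cycle, ependymal- and microglia-like cells stood apart in single genes. Etfa, a subunit of electron transfer flavoprotein, was at 388 ± 40.0 CPM in ependymal-like cells and at 122 ± 9.83 CPM in astrocyte-like cells, the next type, with no overlap, although its partner subunit Etfb was highest in astrocyte-like cells (255 ± 40.7 CPM). Acadm, the medium-chain dehydrogenase, was also highest in ependymal-like cells (302 ± 81.5 CPM), where its lowest library (190 CPM) overlapped the NSC-like range (108 to 201 CPM). Acads, the short-chain dehydrogenase, was highest in microglia-like cells (79.1 ± 10.1 CPM) and then in NSC-like cells (47.9 ± 7.65 CPM), without overlap. The peroxisomal oxidase Acox3 had 98.1 ± 26.1 CPM in microglia-like and 29.2 ± 6.89 CPM in ependymal-like cells, also without overlap. Hadha and Hadhb, the subunits of the trifunctional protein, ran broadly together: Hadha spanned 39.8 ± 5.3 CPM in neuron-like to 169 ± 14.6 CPM in oligodendrocyte-like cells, and Hadhb 27.6 ± 3.87 CPM in neuron-like to 210 ± 21.8 CPM in astrocyte-like cells. Acaa1a was counted beside its near-identical copy Acaa1b, and its level (103 ± 33.6 CPM in oligodendrocyte-like cells, the highest type) is uncertain for that reason.

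The ketone body genes had no common top cell type. Oxct1, the enzyme that commits ketone bodies to use as fuel, was highest in ependymal-like cells (514 ± 39.5 CPM), second in TAP-like cells (362 ± 48.8 CPM) and lowest in endothelial-like cells (57.2 ± 9.62 CPM). Acat1, the thiolase of ketone body and isoleucine breakdown, was highest in TAP-like cells, where 169 CPM in the lowest library exceeded the 158 CPM of the highest neuroblast-like library. Bdh1, which interconverts the ketone bodies, had overlapping levels in OPC-like (75.5 ± 10.3 CPM), astrocyte-like (73.7 ± 14.3 CPM), ependymal-like (61.0 ± 18.5 CPM) and NSC-like cells (55.1 ± 10.7 CPM), and was at 3.84 ± 2.1 CPM in endothelial-like cells. Of the regulators, Ppargc1a, the coactivator of mitochondrial biogenesis, was at 133 ± 14.1 CPM in astrocyte-like cells, above every library of every other type, and at 78.3 ± 11.9 CPM in NSC-like cells. Ppara, the receptor that drives fatty acid oxidation genes, was low everywhere, at 16.7 ± 2.01 CPM in astrocyte-like, 11.2 ± 2.99 CPM in NSC-like and 0.231 ± 0.294 CPM in neuron-like cells.

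Along the neurogenic lineage, from NSC-like to TAP-like to neuroblast-like cells, almost the whole fatty acid oxidation set went down in CPM at the first step. CPM is a share of the UMIs of a type. The median cell held 7339 UMIs in the NSC-like, 18531 in the TAP-like and 5522 in the larger neuroblast-like cluster. A lower CPM therefore need not mean fewer UMIs of a gene per cell, nor a higher CPM more. TAP-like cells were compared with NSC-like cells of the same library, with library as a block. TAP-like cells were named from markers such as Mki67 and Top2a and already held the 7 neuroblast markers at 3663 to 5330 CPM. NSC-like cells held these at 276 to 382 CPM and neuroblast-like cells at 8656 to 12198 CPM. An unnamed cluster of 2125 cells, with Dll3, Gsx1, Helt and Cdc6 among its top genes, was left out, and its place in the lineage was not tested. Called here means only past the fit's threshold (adjusted p under 0.05, edgeR), a way of counting differences between clusters of the same cells and not a test that the types differ. Of 38 members that passed the count filter, 33 were called lower in TAP-like cells and 4 higher, with 42.6% and 40.8% of all 13207 genes tested called in those directions. The median log2 difference was −1.30 over the members and −0.03 over all genes. The carnitine shuttle (4 of 4), the later mitochondrial steps (9 of 9), the peroxisomal genes (5 of 5) and electron transfer (3 of 3) were lower throughout, as were 5 of 6 dehydrogenases. Acad9, which also serves complex I assembly, was the gene without a call, and Acad10 did not pass the filter. Ppara, at low counts, had the largest decrease, from 11.3 ± 3.08 to 0.338 ± 0.223 CPM (log2 difference −4.94, SE 0.24). Of the members whose log2 CPM averaged 4 or more, Acsl6 led (260 ± 26.5 to 15.3 ± 2.25 CPM, −4.08, SE 0.07). It was followed by the thiolase Acaa2 (188 ± 43.6 to 16.4 ± 4.31 CPM, −3.52, SE 0.07), Ppargc1a (78.8 ± 11.3 to 8.06 ± 1.8 CPM, −3.25, SE 0.10), Cpt1a (−3.10, SE 0.11), Acsl3 (−3.09, SE 0.08) and the long-chain dehydrogenase Acadl (192 ± 16.3 to 32.0 ± 5 CPM, −2.61, SE 0.07). Each of these 7 was lower in TAP-like cells in 7 of 7 libraries. The members that were higher in TAP-like cells were Acat1 (130 ± 15.8 to 220 ± 26.5 CPM, 0.76, SE 0.05), Oxct1 (233 ± 28.2 to 359 ± 39.3 CPM, 0.63, SE 0.08), Acsl1 and Acsl5. Of the ketone body genes, Bdh1 alone was lower (55.5 ± 10.5 to 18.7 ± 4.14 CPM, −1.55, SE 0.09).

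From TAP-like to neuroblast-like cells the members divided. Of 36 tested, 22 were called lower and 10 higher (36.3% and 41.3% of 12737 genes), with a median of −0.44 against 0.06 over all genes. The losses were led by Decr1, which handles unsaturated chains (26.8 ± 1.85 to 7.13 ± 1.71 CPM, −1.86, SE 0.10), Hadh (36.8 ± 4.16 to 10.1 ± 1.79 CPM, −1.80, SE 0.09) and Oxct1 (351 ± 37.3 to 106 ± 10.3 CPM, −1.72, SE 0.05), so that the higher level of Oxct1 in TAP-like cells was not kept. Ucp2 (−1.42, SE 0.26), Eci1 (−1.11, SE 0.07) and Etfa (−1.07, SE 0.06) were the next largest decreases. Cpt1c had the largest increase (15.2 ± 2.55 to 31.1 ± 4.82 CPM, 1.01, SE 0.09, higher in 7 of 7 libraries), and Decr2, Acaa1a, Acox3, Acsl6, Slc25a20, Acadvl, Ech1, Acadm and Eci2 were also higher. Over the whole path, 34 of 37 members were lower in neuroblast-like than in NSC-like cells and 1, Acsl1, was higher (40.9% and 40.6% of 13083 genes). Ppara was at −4.22 (SE 0.27), Cpt1a at −4.14 (SE 0.16), Ppargc1a at −4.07 (SE 0.18) and Hadh at −3.23 (SE 0.09). Cpt1c and Acat1 were the members without a call.

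**Figure D2:**
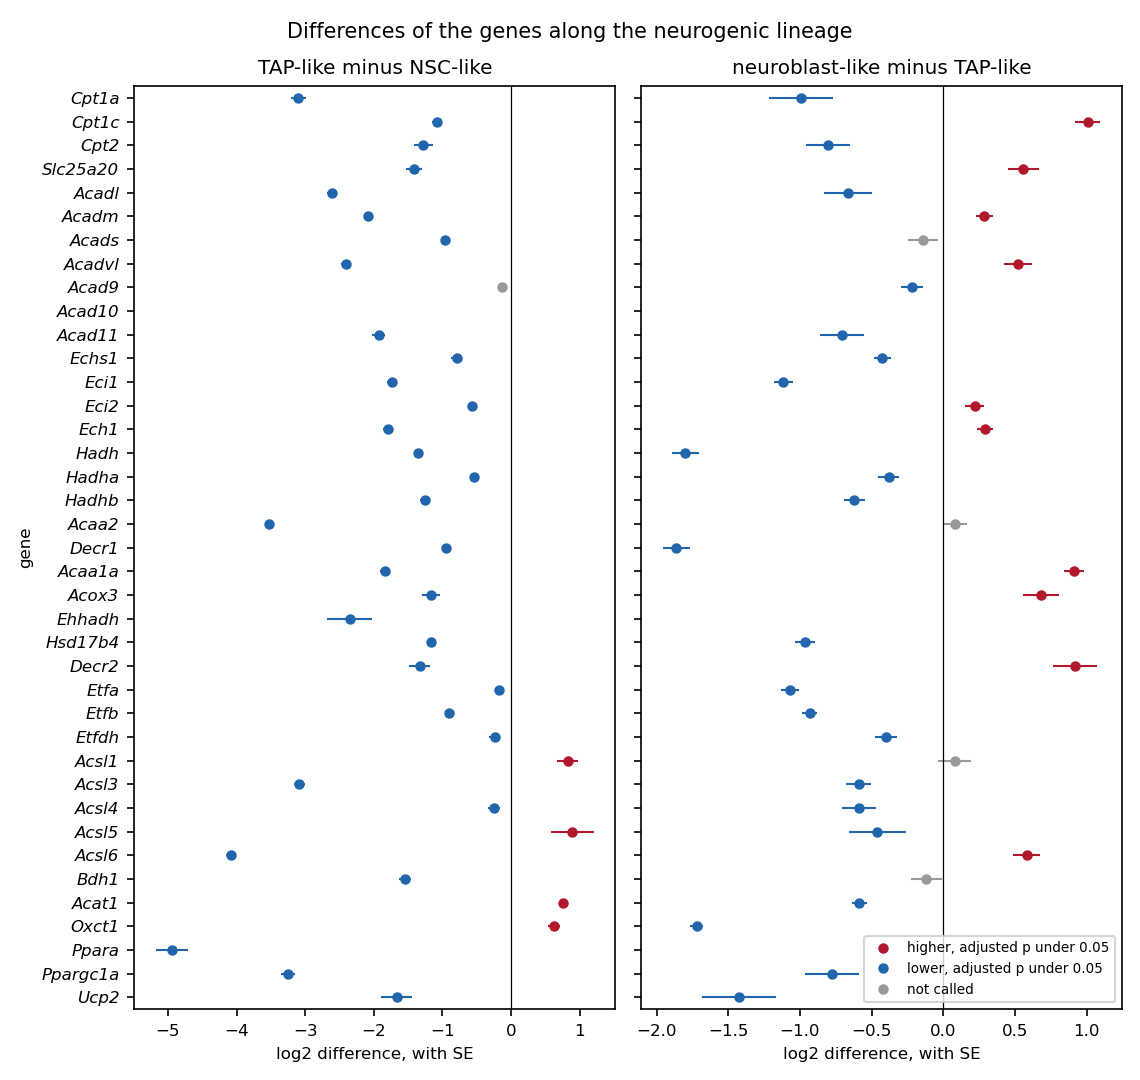
Log2 difference of each gene (rows) between successive named cell types of the lineage, with its SE: TAP-like minus NSC-like (left) and neuroblast-like minus TAP-like (right), 7 libraries each. Blue points are called lower, red points higher and grey points are not called; the left panel is almost wholly blue, with Acat1, Oxct1, Acsl1 and Acsl5 to the right of 0.

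The related genes outside the set did not all share this course. Of the 59 on the list (uptake, activation, peroxisome, ketone bodies, PPAR targets and uncoupling proteins), 49 were tested between TAP-like and NSC-like cells, 35 were lower and 8 higher, beside 42.6% and 40.8% of all genes. At the second step 20 of 46 were lower and 16 higher, beside 36.3% and 41.3% of all genes. The largest decreases at the first step were in Mgll, a lipase that releases fatty acids from monoacylglycerols (−5.45), Angptl4 (−4.27) and Bdh2, a cytosolic dehydrogenase. Astrocyte-like cells compared with NSC-like cells kept the oxidation genes: 19 of 37 members were higher and 7 lower (29% and 29.9% of 11882 genes), with a median of 0.21. Acsl6 (259 ± 29.1 to 712 ± 44.6 CPM, 1.46, SE 0.06), Acsl3 (0.87, SE 0.07), Ppargc1a (0.78, SE 0.06), Acad11 (0.63, SE 0.10), Cpt1a (0.61, SE 0.06) and Cpt2 (0.54, SE 0.10) were the largest increases of members whose log2 CPM averaged 4 or more. Ehhadh, at lower counts, was at 0.78 (SE 0.25). Ucp2 had the largest decrease of the members, from 34.0 ± 18.6 to 10.6 ± 4.27 CPM (−1.60, SE 0.19), and the others, Acad9, Echs1, Acads, Ech1, Acat1 and Hsd17b4, were at −0.37 to −0.15.

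In NSC-like cells the cKO libraries differed little from Control libraries over the set. All 39 members were tested there, and the 1 past the threshold in cKO against Control libraries was Ucp2, whose rise was known when the set was drawn up, so that nothing is read from its call. Of all 14342 genes, 22 were called (0.153%), all 22 of them higher. The median log2 fold change was 0.0040 over the members and −0.0032 over all genes. The 3 cKO libraries lay wholly above the 3 Control libraries for 5 members and wholly below for 2, as they did for 10% and 8% of all genes. The count changed with the library left out. Leaving out any 1 library other than cKO replicate 1 left no member called in NSC-like cells (0 to 6 genes over all features), whereas without cKO replicate 1 there were 3 (Ucp2, Ppara and Acaa2) and 1677 genes. By role, all 5 synthetases had a fold change above 0, without a call, and none of the 4 carnitine shuttle genes did; 49.6% of all genes lay above 0. At an unadjusted p under 0.05 there were 5 members, 3 higher and 2 lower, beside 13.8% of all genes. In the other 10 cell types no member was called in the reported fit, of 33 to 38 tested in each. DESeq2 called none there, while some other alternatives did, such as the replicate number as a block. Over all genes, the reported fit called 156 in astrocyte-like (1.29%), 15 in ependymal-like (0.108%), 2 in neuroblast-like (0.0144%) and 1 in neuron-like cells (0.00754%), and none in the others. At an unadjusted p under 0.05 there were 4 members in ependymal-like cells (8.52% of all genes) and 2 in OPC-like cells (4.58%). There was 1 each in TAP-like (6.54%), astrocyte-like (10%), oligodendrocyte-like (1.85%) and neuron-like cells (2.83%). There was none in neuroblast-like (8.41%), endothelial-like (1.89%), mural-like (2.99%) and microglia-like cells (3.43%). The members' medians ran from −0.09 in neuron-like to 0.08 in ependymal-like cells.

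**Figure D3:**
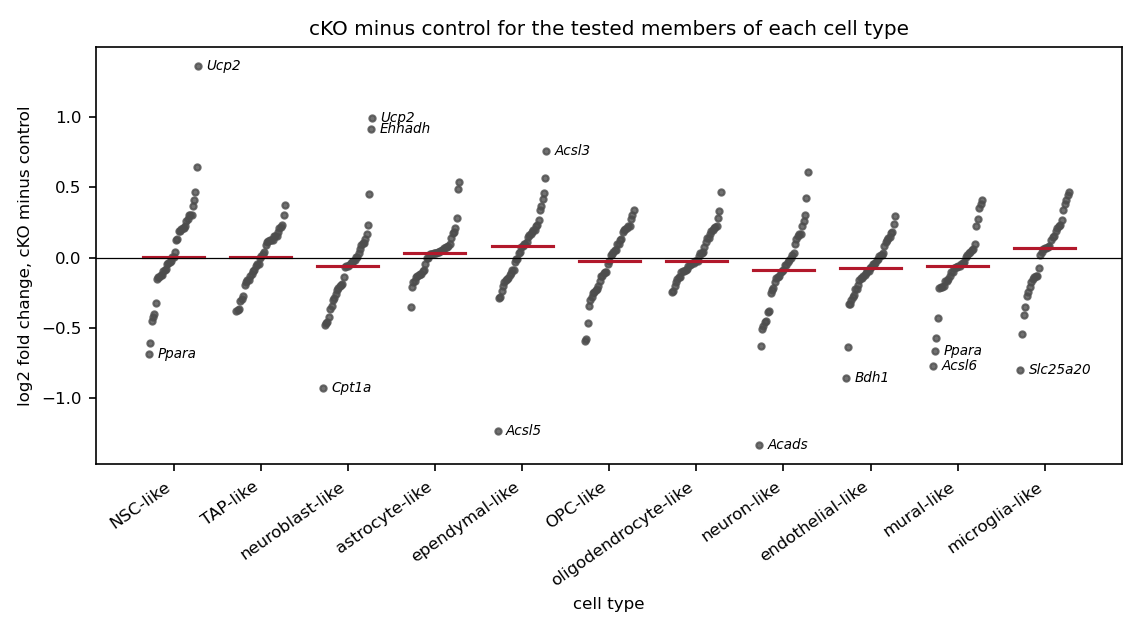
Log2 fold change of cKO minus Control for each tested member (points, sorted within a cell type) in 11 cell types, with the median of the members as a red bar. The medians lie between −0.09 and 0.08; names are given beyond 0.65 in either direction, Acads in neuron-like cells (−1.33) is the lowest point, and Ucp2 in NSC-like cells (1.36) is the highest point.

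Ucp2 encodes an inner mitochondrial membrane carrier of the uncoupling protein family, which is linked to fuel choice and low oxidant levels. Its rise in cKO NSC-like cells was known when the set was drawn up, and it is therefore described without a test. The Control libraries read 19.9, 20.9 and 21.4 CPM, the cKO libraries 35.9, 64.7 and 60.1 CPM and the DKO library 24.4 CPM. The groups did not overlap, cKO replicate 1 lay between the Control level and the other cKO libraries, and the DKO library lay just above the Control range. The log2 fold change was 1.36 (SE 0.21). The libraries had been processed with different Cell Ranger versions, and the cKO to Control ratio was 1.30 on the log2 scale in the libraries of the earlier version and 1.49 in those of the later one. The gene lies on chromosome 7 from 100493337 to 100502020 on the plus strand (GENCODE vM21, GRCm38), and the 229 bases before its first annotated exon, chr7:100493108-100493336 (RefSeq, GRCm38.p6), are shown as the start region of the member with the largest difference in NSC-like cells, with the GGGCGG box in capitals.
Ucp2: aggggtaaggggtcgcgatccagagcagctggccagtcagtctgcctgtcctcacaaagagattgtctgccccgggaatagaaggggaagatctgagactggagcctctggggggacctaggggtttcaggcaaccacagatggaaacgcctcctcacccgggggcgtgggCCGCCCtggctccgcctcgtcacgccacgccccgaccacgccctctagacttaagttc
This stretch held 1 box, written as CCGCCC because it lies on the other strand.

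The share of NSC-like cells with a Ucp2 UMI was higher in each cKO library than in the Control libraries, but the DKO library did not lie above the Control libraries. This share comes from the same Ucp2 counts, so it is a further description and no separate support. Each cell was thinned to 2000 UMIs so that depth was equal, which left out 1 to 71 cells of a library. Shares were 4.70%, 4.64% and 3.95% in Control, 5.89%, 10.7% and 9.86% in cKO and 2.75% in DKO. Exact 95% binomial intervals were 4.42 to 7.67% for cKO replicate 1, 6.81 to 15.7% for cKO replicate 2, 7.68 to 12.4% for cKO replicate 3 and 1.75 to 4.10% for the DKO library. Those of cKO replicate 1 and the DKO library overlap those of the 3 Control libraries (2.86 to 7.08% at their widest). That of cKO replicate 2 overlaps the interval of Control replicate 2, and that of cKO replicate 3 overlaps no Control interval. All cover counting error within 1 library only, so their overlap or separation is no test between the genotypes. Without thinning the shares were 11.3% to 16.8% in Control, 15.0% to 38.6% in cKO and 14.3% in DKO. Oligodendrocyte-like cells, in which Ucp2 is nearly absent, had 0% to 0.599% after thinning. Median depth in NSC-like cells was 5313, 9546 and 7161 UMIs in Control and 5244, 12204 and 10431 UMIs in cKO libraries. No single cell carried the sums: the highest count in 1 cell was 9 UMIs, and the top 1% of cells held 11.7% to 23.7% of the UMIs in cKO and 17.1% to 17.9% in Control libraries.

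**Figure D4:**
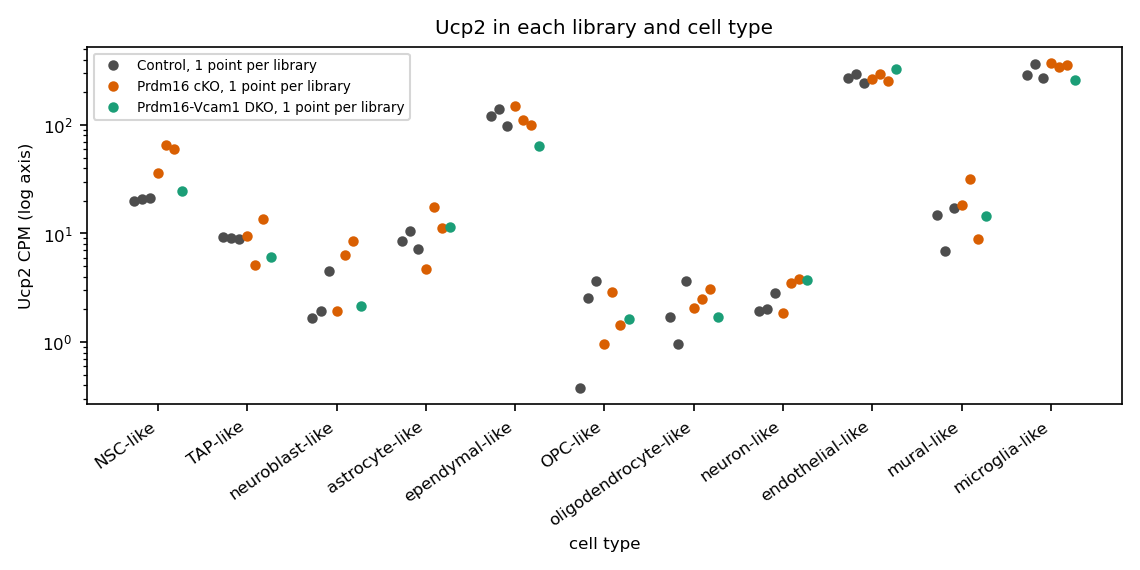
Ucp2 level in CPM (log axis) for each library (points) in 11 cell types, coloured by genotype. In NSC-like cells the 3 cKO points (35.9 to 64.7 CPM) lie above the 3 Control points (19.9 to 21.4 CPM), while in endothelial- and microglia-like cells, the highest types, the genotypes overlap.

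Ucp2 is also a gene of other cells of the tissue, whose markers were therefore summed in NSC-like cells; apart from the values below, their part in the difference of Ucp2 was not tested. Its level was 332 ± 47.8 CPM in microglia-like, 287 ± 31.3 CPM in endothelial-like and 111 ± 29.3 CPM in ependymal-like cells (mean of all 7 libraries). The 8 microglia markers summed to 50.7 to 69.3 CPM in Control and 46.1 to 49.0 CPM in cKO NSC-like cells, so that the cKO libraries lay below the Control libraries. The 6 ependymal markers summed to 173 to 281 CPM in Control and 231 to 367 CPM in cKO, and the 6 endothelial markers to 32.0 to 44.7 and 39.7 to 58.6 CPM; none of these markers was at 0 throughout. In the 3594 NSC-like cells with 0 UMIs of the microglia markers, Ucp2 was at 17.7 to 22.1 CPM in Control and 33.2 to 71.8 CPM in cKO. In the 1272 cells with 0 UMIs of the ependymal and endothelial markers, it was at 14.5, 21.8 and 17.7 CPM in Control and 19.3, 57.4 and 43.5 CPM in cKO, from 30, 9 and 22 UMIs, and the fold change was 0.90 on the log2 scale. In neuroblast-like cells Ucp2 was at 1.66, 1.94 and 4.55 CPM in Control and 1.93, 6.30 and 8.49 CPM in cKO, which overlapped (log2 fold change 0.99, SE 0.56, adjusted p = 0.640 in edgeR). The log2 fold change of Ucp2 was 0.01 (SE 0.17) in endothelial-like and 0.28 (SE 0.39) in astrocyte-like cells, and the cKO effect in NSC-like cells exceeded that in endothelial-like cells by 1.33 (SE 0.21) and that in astrocyte-like cells by 1.07 (SE 0.29).

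Within the Cre-carrying libraries, Ucp2 was split by Prm1. NSC-like cells were divided by whether they held a Prm1 UMI, and Ucp2 was given in CPM of each part, here without the scaling between libraries (TMM) that the other CPM carry, with 95% Poisson intervals for counting error. In cKO replicate 1, the 239 cells with Prm1 had 62.2 (52.1 to 73.6) and the 639 cells without it 20.2 (15.8 to 25.4). The Control libraries were at 20.8 to 21.8 on this scale, and these values are a description of single libraries. In the DKO library, the 337 cells with Prm1 had 36.9 (31.4 to 43.1) and the 502 without it 11.9 (8.96 to 15.4). In cKO replicate 3 the values were 59.7 (54.0 to 65.9) in 501 cells and 35.9 (26.1 to 48.2) in 153 cells. In cKO replicate 2 they were 61.2 (51.5 to 72.3) in 150 cells and 74.9 (53.0 to 103) in 57 cells, where the intervals overlapped. The cells with Prm1 read 59.7 to 62.2 CPM in the 3 cKO libraries, and they made up 27.2%, 72.5% and 76.6% of the NSC-like cells of cKO replicates 1, 2 and 3. A cell without a Prm1 UMI may still hold the RNA, since detection rises with depth: in cKO replicate 1 the median depth was 6642 UMIs with Prm1 and 4869 without. Endothelial-like cells of the Cre-carrying libraries, which hGFAP-Cre does not target, held a Prm1 UMI in 3.00% to 7.63% of cells.

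**Figure D5:**
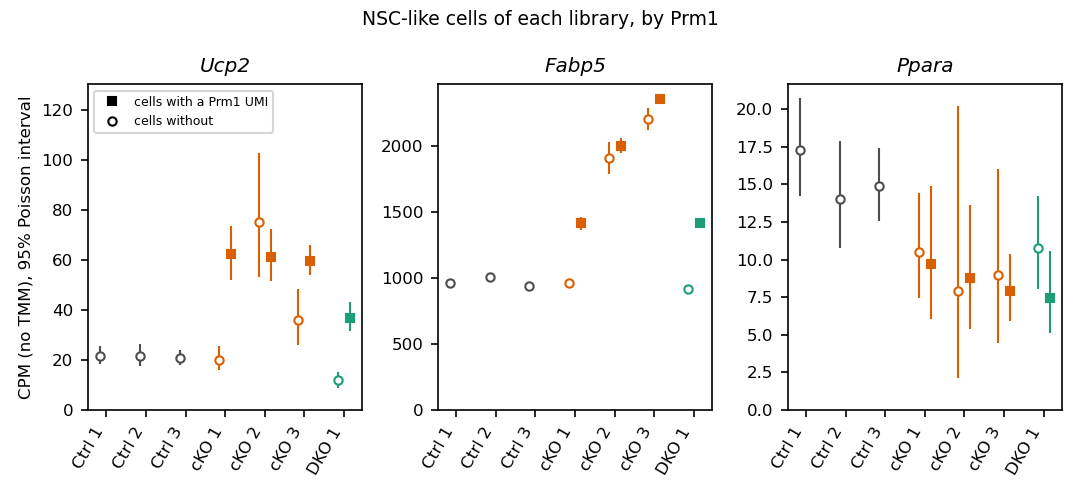
Levels (CPM without TMM scaling) of Ucp2, Fabp5 and Ppara (panels) in NSC-like cells of each library, split into cells with a Prm1 UMI (squares) and without (open circles), with 95% Poisson intervals; Control libraries have no cell with a Prm1 UMI. In cKO replicates 1 and 3 and the DKO library Ucp2 and Fabp5 are higher in cells with Prm1, while Ppara is not. In cKO replicates 2 and 3 Fabp5 is above the Control range with and without Prm1.

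Ppara had the second largest difference of the set in size, and was lower. It read 15.8, 13.5 and 15.3 CPM in Control, 10.2, 8.77 and 8.66 CPM in cKO and 9.48 CPM in DKO NSC-like cells. The groups did not overlap and the DKO library fell within the cKO range, but the test did not call it (log2 fold change −0.69, SE 0.21, adjusted p = 0.151 in edgeR). Without TMM scaling, Ppara in cKO replicate 1 was at 10.5 CPM (7.44 to 14.4) without Prm1 and 9.74 (6.03 to 14.9) with it. Unlike those of Ucp2, these intervals overlapped. They rest on 38 and 21 UMIs, and both reach the Control range on this scale, 14.0 to 17.3 CPM. Without and with Prm1 it was at 7.89 and 8.81 CPM in cKO replicate 2, 8.97 and 7.90 in cKO replicate 3 and 10.8 and 7.48 in DKO. Slc25a20, the carnitine-acylcarnitine carrier, was at 25.4, 25.5 and 25.9 CPM in Control and 20.3, 17.2 and 19.5 CPM in cKO (−0.42, SE 0.16, adjusted p = 0.258 in edgeR), with the DKO library at 20.3 CPM. Upward, Etfa read 108, 104 and 100 CPM against 133, 146 and 137 CPM (0.41, SE 0.14, adjusted p = 0.205), with 121 CPM in DKO. Oxct1 read 225, 213 and 222 CPM against 255, 260 and 299 CPM (0.30, SE 0.16, adjusted p = 0.436). Hadhb, of the trifunctional protein, read 161, 162 and 125 CPM against 171, 199 and 182 CPM (0.30, SE 0.16, adjusted p = 0.459). Ech1 was at 162, 176 and 151 CPM against 194, 184 and 187 CPM (0.21, SE 0.15, adjusted p = 0.593). None of these 6 genes passed edgeR's test. Control and cKO libraries did not overlap in any of them, but 10% of all genes were also wholly higher and 8% wholly lower in cKO. In the same NSC-like cells the 9 astrocyte markers summed to 1866 to 1931 CPM in Control and 2090 to 2866 CPM in cKO, the 6 TAP markers to 45.1 to 53.2 and 19.0 to 42.3 CPM, and the 7 neuroblast markers to 307 to 382 and 276 to 299.5 CPM, also without overlap; their part in these differences was not tested.

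In astrocyte-like cells no member was called. Hadh, the short-chain hydroxyacyl-CoA dehydrogenase, was nearest, with 91.6, 82.9 and 91.4 CPM in Control, 121, 148 and 119 CPM in cKO and 120 CPM in DKO (0.53, SE 0.16, adjusted p = 0.146 in edgeR). Bdh1 was at 66.6, 100 and 74.5 CPM in Control and 63.9, 59.8 and 64.4 CPM in cKO (−0.35, SE 0.18, adjusted p = 0.543), and Etfa at 112, 107 and 110 CPM against 124, 135 and 114 CPM (0.18, SE 0.16, adjusted p = 0.791). These 3 did not overlap between the groups, 2 higher and 1 lower, as did 7.75% and 7.46% of all genes. The log2 fold change of Bdh1 differed between NSC-like and astrocyte-like cells by 0.63 (SE 0.15, adjusted p = 0.0274 in edgeR), and that of Acaa2 by −0.47 (SE 0.12, adjusted p = 0.0319). Of 13605 genes, 1.16% were called larger and 0.588% smaller in NSC-like cells. Leaving out any 1 of 5 libraries (each but cKO replicate 1) ended the calls of Bdh1 and Acaa2. In TAP-like cells Etfa (0.23, adjusted p = 0.828) and Acat1 (−0.28, adjusted p = 0.807) had groups that did not overlap (5.77% of all genes higher and 6.08% lower). In these cells NSC markers (887 to 953 CPM in Control, 1044 to 1524 in cKO) and OPC markers (9.23 to 12.3 and 13.1 to 21.5) were wholly higher. Neuroblast markers (4783 to 5330 and 3663 to 4690) and endothelial markers (27.4 to 46.4 and 15.0 to 25.2) were wholly lower. NSC-like cells hold less Acat1, and the part of these markers was not tested. In neuroblast-like cells Acsl4 was separate and higher and Cpt1a and Hsd17b4 (−0.37, adjusted p = 0.590) were separate and lower (6.7% and 6.67% of all genes). TAP markers, whose cells hold more Cpt1a, were also wholly lower there, at 87.0 to 97.2 CPM in Control and 32.7 to 83.6 CPM in cKO. Their part was not tested.

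In the remaining types the groups separated for few members. In neuron-like cells 5 of 35 were wholly lower in cKO (Acads, Echs1, Eci1, Eci2 and Decr2) and 1 was wholly higher (Acsl4), beside 4.44% and 3.72% of all genes, and none was called. In OPC-like cells 3 were lower (Cpt1a, Cpt1c and Acsl1) and 1 higher (Etfb), beside 6.01% and 5.18% of all genes. In the same cells neuron markers, whose cells hold the most Cpt1c, summed to 466 to 470 CPM in Control and 204 to 438 CPM in cKO. Microglia markers summed to 44.2 to 56.3 and 19.2 to 33.9 CPM. The part of these markers was not tested. In oligodendrocyte-like cells 1 member was lower and 3 were higher (3.62% and 3.07%). In endothelial-like cells 2 were lower and none higher (3.71% and 3.51%), in mural-like cells 1 was lower and none higher (4.58% and 4.01%), and in microglia-like cells 1 went each way (5.21% lower and 4.59% higher).

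In ependymal-like cells, a pair of synthetases moved in opposite directions without a call in the reported fit. Over the alternatives, Acsl3 was past the threshold in 3 of 17 and Acsl5 in 2 of 16. Acsl3 read 213, 189 and 261 CPM in Control, 264, 429 and 437 CPM in cKO and 523 CPM in DKO (0.76, SE 0.21, adjusted p = 0.242 in edgeR). Acsl5 read 11.3, 11.1 and 9.68 CPM in Control, 6.70, 1.83 and 3.89 CPM in cKO and 6.52 CPM in DKO (−1.23, SE 0.37, adjusted p = 0.263). These Acsl5 levels rest on few UMIs, since ependymal-like cells summed to 960772 UMIs in Control replicate 2 and 1684997 in cKO replicate 2. Both synthetases were among the 7 members whose groups did not overlap, 5 higher and 2 lower (7.66% and 7.03% of all genes). Markers of 4 other types differed without overlap in the same cells. Astrocyte markers, whose cells hold the most Acsl3, summed to 864 to 1108 CPM in Control and 1109 to 1173 CPM in cKO, mural markers to 371 to 629 and 708 to 941 CPM, oligodendrocyte markers to 432 to 690 and 196 to 391 CPM, and TAP markers to 62.3 to 92.5 and 33.0 to 60.3 CPM. The 6 endothelial markers, whose cells hold more Acsl5, overlapped, at 33.5 to 130 CPM in Control and 28.1 to 41.3 CPM in cKO, with 97.8 CPM in DKO. The 8 microglia markers, whose cells hold the most Acsl5, overlapped too, at 47.2 to 65.5 CPM in Control and 42.2 to 70.9 CPM in cKO. The part of these markers in both differences was not tested.

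Genes around the set gave 2 calls, both in astrocyte-like cells and out of 48 tested; over all genes 1.05% were called higher and 0.24% lower. Pdk4, a kinase that shifts cells from glucose to fatty acid use and a PPAR target, fell from 37.1, 46.8 and 35.4 CPM to 25.1, 17.6 and 18.5 CPM, with 24.2 CPM in DKO (−0.94, SE 0.21, adjusted p = 0.0330 in edgeR). Fabp5, a carrier of fatty acids that is abundant in radial glia, rose from 1280, 1638 and 1635 CPM to 2311, 3633 and 4121 CPM, with 2310 CPM in DKO (1.14, SE 0.22, adjusted p = 0.0126). Both calls ended when any 1 of 5 libraries (each but cKO replicate 1) was left out. That of Pdk4 was past the threshold in 8 of 17 alternatives and that of Fabp5 in 11 of 17, with Pdk4 at −0.53 (adjusted p = 0.794 in edgeR) in cells with 0 UMIs of ependymal and endothelial markers. Markers of several other types moved in the same astrocyte-like cells without overlap: neuroblast markers summed to 134 to 157 CPM in Control and 204 to 427 CPM in cKO, endothelial markers to 9.28 to 29.6 and 31.7 to 52.1 CPM, and TAP markers to 21.8 to 34.0 and 7.92 to 18.9 CPM. Their part in these 2 changes was not tested.

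In NSC-like cells 52 genes of the list were tested and none was called, with 7 higher and 3 lower at an unadjusted p under 0.05, beside 13.8% of all genes in both directions together. The values below were chosen after they were seen. Fabp5 was at 880, 970 and 961 CPM against 1129, 2015 and 2501 CPM (1.01, SE 0.27, adjusted p = 0.116 in edgeR), and Pdk4 at 47.1, 43.2 and 32.7 CPM against 32.1, 24.1 and 18.1 CPM (−0.73, SE 0.22, adjusted p = 0.164). Slc16a1, a carrier of lactate and ketone bodies, was at 19, 15.6 and 16 CPM against 24.4, 42 and 51.1 CPM (1.22, SE 0.25, adjusted p = 0.0643), but at −0.19 on the log2 scale in the cells with 0 UMIs of ependymal and endothelial markers, without a call. That set kept 20 of 207 NSC-like cells of cKO replicate 2 and 76 of 654 of cKO replicate 3, the libraries where Slc16a1 was highest. In cKO replicate 1, Fabp5 was at 1414 CPM (1364 to 1465) in cells with Prm1 and 960 (929 to 993) in cells without it, and in the DKO library at 1420 (1385 to 1456) and 920 (893 to 948). In cKO replicate 2 it was at 2003 (1945 to 2062) and 1907 (1788 to 2031), and in cKO replicate 3 at 2354 (2317 to 2392) and 2207 (2124 to 2291), so that cells without Prm1 lay above the Control range of 937 to 1009 CPM in these 2 libraries. The astrocyte markers given above, whose cells hold more Fabp5, were also higher in cKO NSC-like cells, and their part in the difference of Fabp5 was not tested.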

How the data were processed

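Count tables of 7 droplet-based single-cell libraries of dissected V-SVZ tissue were used. The deposited counts are UMI counts per gene and cell, which the authors made with Cell Ranger on mm10 (version 6.1.1 in the submitters' processing notes, 6.0.1 in the file headers of 4 libraries and 6.1.1 in those of 3); no normalization had been applied. Groups came from the labels. Cells with 500 to 7000 genes and at most 10% mitochondrial counts were kept, as in the study, integrated and clustered in Seurat 5.3.0 (resolution 0.15, 30 principal components, members left out of the features) and named from marker lists. Doublets were kept in the reported values; Scrublet (scanpy 1.11.5) marked 1043 cells, 2.41%, and leaving them out is an alternative. UMIs were added up within each type of a library and fitted over all genes with edgeR 4.0.16 (TMM, filterByExpr, robust quasi-likelihood test, all 7 libraries in 1 fit, two-sided, Benjamini-Hochberg over all genes, 0.05); limma 3.58.1 and R 4.3.3 were used, with DESeq2 1.42.0 as an alternative. Cell types were compared within libraries, with library as a block. The DKO group has 1 library and no test, and p-values measure the spread between pools of mice. Binomial (Clopper-Pearson) and Poisson intervals are exact, at 95%, and cover counting error only, as does the floor of 3 counts.

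The members and gene lists were chosen with earlier results of these data known. Named were members called for the knockout, up to 5 without overlap between groups and up to 6 called per lineage step and direction whose log2 CPM averaged 4 or more, members separate in 1 cell type, and the paralog, ketone and regulator sets. Replicate numbers were checked for pairing by correlating deviations from the group means; all 3 correlations passed 0.1 only in oligodendrocyte- and endothelial-like cells, so the block is an alternative. Other alternatives were no count filter, each library left out, a limit of 5% mitochondrial counts, other clusterings, cells free of other types' markers and, chosen after seeing the data, cells with barcodes not shared between libraries and cells without ependymal and endothelial markers. The scripts were tested on simulated counts. Gene positions are from GENCODE vM21 and upstream sequences from RefSeq, both GRCm38. A gene of the list of related genes is not reported here and is left out of that list's counts.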

Additional observations from a re-analysis of the deposited data

Results flagged for a closer look

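The log2 fold change of cKO against Control differed between cell types for 4 genes besides Ucp2, by a test of the difference itself in edgeR. Tested were 39 members and 52 related genes against endothelial-like cells, and 38 and 51 against astrocyte-like cells. Over all genes, 0.192% of 14566 were called larger and 0% smaller in NSC-like than in endothelial-like cells. Against astrocyte-like cells, 1.16% of 13605 were called larger and 0.588% smaller. For Ucp2 the fold change was larger by 1.33 on the log2 scale in NSC-like than in endothelial-like cells and by 1.07 than in astrocyte-like cells, which is a description with no test, since its rise in NSC-like cells was known when the set was drawn up. Slc16a1, a carrier of lactate and ketone bodies, was larger by 1.36 in NSC-like than in endothelial-like cells (SE 0.22, adjusted p = 0.0273), past the threshold in 9 of 14 alternatives and at 0.021 (adjusted p = 1) in cells with 0 UMIs of ependymal and endothelial markers. Bdh1 was larger by 0.63 in NSC-like than in astrocyte-like cells (SE 0.15, adjusted p = 0.0274) and Dbi, which binds acyl-CoA, by 0.64 (SE 0.13, adjusted p = 0.0105). Acaa2 was smaller in NSC-like than in astrocyte-like cells, at −0.47 (SE 0.12, adjusted p = 0.0319). Bdh1 was past the threshold in 6 of 14 alternatives, Acaa2 in 7 and Dbi in 8. Dbi was at 0.33 (adjusted p = 0.917) in cells with 0 UMIs of ependymal and endothelial markers. This set, also used for Slc16a1, kept 20 NSC-like cells of cKO replicate 2 and 76 of cKO replicate 3. The calls of Bdh1, Acaa2 and Dbi ended when any 1 of 5 libraries (each but cKO replicate 1) was left out, and that of Slc16a1 without any Control library or cKO replicate 2.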

How the results depend on the processing

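The fold change of Ucp2 in NSC-like cells, whose rise was known beforehand, is given as a description: over 16 alternatives it ran from 0.90 to 1.58. It was 1.35 without the DKO library, 1.30 at 5% mitochondrial counts, 1.31 without microglia markers and 0.90 without ependymal and endothelial markers, and 1.21 to 1.58 when each library was left out. The set without ependymal and endothelial markers held 304, 20 and 76 NSC-like cells in cKO replicates 1, 2 and 3, and 461, 89 and 191 in the Control libraries. Members called over all cell types, Ucp2 included, were 1, and 3 without the count filter, 0 without the DKO library, at 5% mitochondrial counts and in both sets of cells without other types' markers, and 0 to 5 with a library left out (5 without cKO replicate 1); in NSC-like cells alone 0 to 3. With the replicate number as a block 3 were called (Ucp2 in NSC-like, Hadh in astrocyte-like and Acsl3 in ependymal-like cells). All-gene counts of these alternatives are given for NSC-like cells only, so the member counts over all types are not read as a trait of the set. Genes called in NSC-like cells were 22, against 574 in DESeq2, 549 without the filter, 580 with the block and 0 to 1677 with a library left out. The members' median was −0.043 at 5% mitochondrial counts and −0.0079 to 0.10 with a library left out. DESeq2 called 2 members higher in neuroblast-like than NSC-like cells (1 to 2 with a library left out), and 3 to 7 were lower in astrocyte-like cells with a library left out. Differences of the cKO fold change between cell types were called for 0 to 2 members (endothelial-like, 0 without ependymal and endothelial markers) and for 0 to 8 (astrocyte-like, 1 at 5% mitochondrial counts, 0 in both sets without markers). The share of all genes is not given for these alternatives, nor for those of the cell type comparisons. The member counts are therefore not read as a trait of the set. The cKO minus Control share of cells with Ucp2 was 1.60 points at 1000 UMIs and 15.5 points without thinning. Signs turned for Ucp2 in endothelial-like cells (−0.054 to 0.075 with a library left out, below 0 without Control replicate 3 or cKO replicate 2; −0.023 at 5% mitochondrial counts, −0.046 without doublets) and astrocyte-like cells (−0.071 to 0.66 with a library left out, below 0 without cKO replicate 2; −0.35 without ependymal and endothelial markers), Bdh1 in astrocyte-like cells (0.079 without integration) and, without ependymal and endothelial markers, Ech1 (−0.075) and Slc16a1 (−0.19) in NSC-like cells. Ucp2 in astrocyte-like cells reached 1.26 in the highest of its 17 alternatives, and 1 of the 17 was past the threshold. Without integration no NSC-like cluster could be named. The largest cluster named astrocyte-like there (5826 cells) passed 8 astrocyte markers but also 5 NSC markers, with Thbs4 first among its top genes. Astrocyte-like values without integration, which the 17 alternatives include, are therefore of another mix of cells. The causes were not tested.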
